A study of Mus musculus with 6 samples.

Results

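The subject of this report is a set of 236 genomic bins of 500 kb, out of 4727 autosomal bins tested, in which the compartment score of mouse muscle cells rose most between day 3 myotubes and AraC-treated myotubes at day 7. The score was the first principal component (PC1) of each chromosome's block of the deposited correlation matrix, divided by its standard deviation (SD) on that chromosome, so its unit is 1 SD of that chromosome's PC1. Bins were tested if they held data in all 3 matrices, and the 5% with the largest difference (AraC-treated myotubes minus day 3 myotubes) were taken (236 bins, 4.99%). They are called rising bins here. The difference that chose them ranged from 0.330 to 1.19 with a median of 0.480, against a median of -0.00976 over all 4727 bins (47.2% of which were higher with AraC and 52.8% not), and it is given as a description with no test.

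The data came from Hi-C, in which DNA ends that lie close together in the nucleus are ligated and sequenced, on C2C12 cells, an immortalised mouse myoblast line that fuses into multinucleate myotubes when serum is withdrawn. Myoblasts (day 0) had proliferated for 72 h in medium with 10% fetal bovine serum. Myotubes (day 3) came from separate cultures plated at a higher density. After 72 h of proliferation these had spent 3 days in 2% horse serum and still contained some undifferentiated myoblasts. Plating density thus also separates the myoblasts from both myotube conditions. AraC-treated myotubes (day 7) had received 10 µg/ml cytosine arabinoside from day 3, a nucleoside analogue that kills dividing cells, given to deplete the residual myoblasts. Both the 4 extra days and the drug, as well as any loss of myoblasts, separate the AraC-treated myotubes from the day 3 myotubes and cannot be told apart. All cells were 1 line with HindIII as the Hi-C enzyme. Each matrix used here pools the 2 biological replicates of its condition, so each bin has 1 value per condition, no replicate spread can be computed and no p-value is given.

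Interphase chromosomes are partitioned into A compartments, which are gene-rich and mostly open and transcribed, and B compartments, which are gene-poor, compact and often attached to the nuclear lamina. Regions of one compartment contact each other preferentially, also across chromosomes, and a positive PC1 marks A and a negative PC1 marks B. During cell differentiation some regions shift along this axis, a change that may accompany gene activation but does not by itself set a gene's activity. No RNA values were used here, and a 500 kb bin usually holds several genes, so the values below belong to the bins and not to single genes.

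The start sites in the leading bins were of different kinds, as the bases just upstream of them show. The 6 sequences below are from the RefSeq annotation of GRCm38.p6 (mm10), 250 bases before the start site of 1 gene in each of the 6 leading bins that moved from B to A and had a promoter entry, written 5′ to 3′ on the gene's strand, with capitals marking each E-box CANNTG, the core motif bound by MyoD, myogenin and other bHLH factors. They are at chr12:83487737-83487986 (minus strand) for Dpf3, chr6:32050038-32050287 (plus) for 1700012A03Rik, chr3:98510473-98510722 (minus) for Hsd3b4, chr14:59597960-59598209 (minus) for Cdadc1, chr5:112577199-112577448 (minus) for Sez6l and chr12:82617249-82617498 (plus) for Rgs6, whose RefSeq start is 29207 bases from its GENCODE start.
Dpf3: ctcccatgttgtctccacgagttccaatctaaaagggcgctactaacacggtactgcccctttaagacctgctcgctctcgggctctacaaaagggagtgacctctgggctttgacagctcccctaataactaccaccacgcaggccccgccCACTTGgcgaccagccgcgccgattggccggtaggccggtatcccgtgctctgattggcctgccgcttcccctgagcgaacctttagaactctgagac
1700012A03Rik: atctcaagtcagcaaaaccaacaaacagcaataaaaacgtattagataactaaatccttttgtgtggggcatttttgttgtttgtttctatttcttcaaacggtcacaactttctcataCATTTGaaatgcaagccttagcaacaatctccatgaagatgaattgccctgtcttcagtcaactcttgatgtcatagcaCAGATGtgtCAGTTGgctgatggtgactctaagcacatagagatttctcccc
Hsd3b4: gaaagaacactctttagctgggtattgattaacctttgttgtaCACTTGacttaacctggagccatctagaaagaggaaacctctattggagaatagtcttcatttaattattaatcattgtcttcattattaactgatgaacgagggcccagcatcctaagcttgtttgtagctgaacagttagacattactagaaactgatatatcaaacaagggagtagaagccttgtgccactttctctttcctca
Cdadc1: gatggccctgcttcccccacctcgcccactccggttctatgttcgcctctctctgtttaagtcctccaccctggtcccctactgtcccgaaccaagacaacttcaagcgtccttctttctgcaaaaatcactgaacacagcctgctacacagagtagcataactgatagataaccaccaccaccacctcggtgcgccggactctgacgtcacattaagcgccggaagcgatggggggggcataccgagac
Sez6l: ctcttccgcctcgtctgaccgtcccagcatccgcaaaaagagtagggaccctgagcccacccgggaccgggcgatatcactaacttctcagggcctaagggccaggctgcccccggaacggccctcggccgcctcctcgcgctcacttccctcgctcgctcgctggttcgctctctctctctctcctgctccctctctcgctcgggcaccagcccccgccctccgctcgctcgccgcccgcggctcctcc
Rgs6: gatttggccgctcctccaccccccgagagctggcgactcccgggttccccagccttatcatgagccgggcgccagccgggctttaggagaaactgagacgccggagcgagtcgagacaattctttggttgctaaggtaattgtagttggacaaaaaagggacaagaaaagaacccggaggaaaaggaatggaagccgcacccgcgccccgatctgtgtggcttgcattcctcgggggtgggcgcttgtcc

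The windows of Dpf3, Cdadc1, Sez6l and Rgs6 were rich in CpG, with 16, 13, 26 and 18 CpG dinucleotides and a GC content of 58.8%, 56.0%, 69.6% and 59.2%. Those of 1700012A03Rik and Hsd3b4 were AT-rich, with 2 and 1 CpG dinucleotides and a GC content of 38.4% and 37.6%. An E-box was present in 3 of the 6 windows, 1 in Dpf3, 3 in 1700012A03Rik and 1 in Hsd3b4. Across the rising bins, 779 of 1042 protein-coding genes had a promoter entry, and 497 of the 779 windows (63.8%) held CANNTG on either strand, a motif that reads the same on both, against 61.6% of the 15402 windows of all tested bins. The palindromic form CAGCTG, which is 1 case of CANNTG, was in 98 of 779 windows (12.6%) and in 12.0% of all windows. The median GC content of the windows was 56.0% and 56.4%. These shares were close to those of all promoters.

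How the score was scaled decided much of which bins were chosen. Before the division by the SD, PC1 had an SD of 0.859 in myoblasts, 1.61 in day 3 myotubes and 1.36 in AraC-treated myotubes over the 4727 bins, so the compartment contrast itself differed between the matrices. Without the division, 143 of the 236 rising bins would again be among the 236 bins chosen, and with division by the median absolute deviation 123 would. In 234 of the 236 the unscaled PC1 too was higher with AraC (59.1% of all bins were). A core of 66 rising bins was chosen under all 7 alternative settings that took the same number of bins. This core held all of the 12 leading bins described below and 27 of the bins that moved from B to A.

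**Figure D1:**
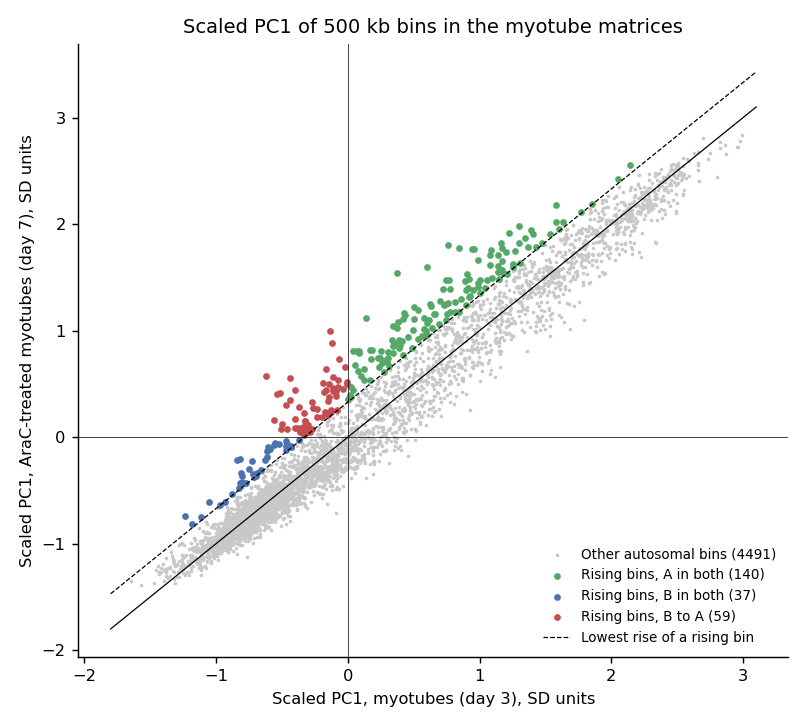
Scaled PC1 (SD units) of each tested autosomal 500 kb bin in day 3 myotubes (x axis) and AraC-treated myotubes (y axis), 1 point per bin and 1 pooled matrix per condition; the solid line is equality and the dashed line the lowest difference of a rising bin, 0.330. The rising bins lie above the dashed line at day 3 scores from -1.24 to 2.14, within the range of all bins, 37 in B in both matrices, 59 moving from B to A and 140 in A in both.

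Most rising bins did not change compartment but moved further into A. In 140 of 236 (59.3%) PC1 was above 0 in both myotube matrices, against a background of 33.4% of all tested bins. A further 59 (25%, exact binomial 95% interval 19.6 to 31.0%, counting error only, and neighbouring bins are not independent) moved from B to A, against 2.05% of all bins. The rule itself favours such bins, and nothing is read from the comparison. In 37 (15.7%, background 61.5%) PC1 stayed below 0 and became less negative. By the rule, none could move from A to B, as 3.05% of all bins did. The quartiles of scaled PC1 among the rising bins were -0.321 and 0.813 at day 3 and 0.230 and 1.36 with AraC. The lowest 3 rising bins had differences of 0.331 (Map1b and Cartpt, chr13), 0.330 (Ppp2r5e, Wdr89, Sgpp1 and Syne2, chr12) and 0.330 (Nos1 and Fbxo21, chr5), and the highest 3 bins left out had 0.330 (the chitinase-like genes Chil3 to Chil6 and Chia1, chr3), 0.328 (Hecw2, chr1) and 0.327 (Sdc3, chr4).

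Myoblasts are the condition whose PC1 the rule did not use. There the rising bins had a median scaled PC1 of -0.0168 (quartiles -0.575 and 0.559), against -0.349 for all bins, and 117 of 236 (49.6%) were in A, against a background of 38.2%. This median moved with the scaling of PC1, to -0.66 for the bins chosen without the division and to 0.93 for those chosen with the median absolute deviation. In the 1038 other bins whose day 3 score lay between the quartiles of the rising bins, the myoblast median was higher, at 0.157. In most rising bins the myoblast value was the lowest of the 3. PC1 was higher in day 3 myotubes than in myoblasts in 172 (72.9%, background 48.7%), and higher in AraC-treated myotubes than in myoblasts in 224 (94.9%, background 46.6%). From B in myoblasts, 32 were in A at day 3 (13.6% of rising bins, background 2.75%) and 84 with AraC (35.6%, background 3.72%), while 9 went from A to B by day 3 (3.81%, background 4.53%). Both comparisons share a matrix with the one that chose the bins. The median changes were 0.214 from myoblasts to day 3 and 0.735 from myoblasts to AraC-treated myotubes, against -0.00645 and -0.0197 over all bins.

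By their order over the 3 conditions the rising bins fell into 3 classes. A stepwise rise was seen in 172 (background 25.8%), the lowest value at day 3 with the highest in AraC-treated myotubes in 52 (background 7.85%), and the lowest value at day 3 with the highest in myoblasts in 12 (background 13.5%). The rule allows only these 3 orders, whereas the backgrounds include bins that were not higher with AraC. Among the 2231 bins that were higher, the shares were 54.7%, 16.6% and 28.7%, against 72.9%, 22.0% and 5.08% of the rising bins. A difference of at least 0.330, which the rule demands, also favours an AraC value above the myoblast value. Nothing is therefore read from this contrast. By compartment, where the rule bears on the counts in the same way, 108 were in A throughout (background 31.2%), 52 were in B until day 3 and in A with AraC (background 1.54%), 35 were in B throughout (background 57.5%), 32 entered A by day 3 and rose further (background 2.18%), 7 left A at day 3 and were in A again with AraC (background 0.508%), and 2 were in A in myoblasts only (background 4.02%). The paths that end in B after A at day 3, which the rule bars, were followed by 0 rising bins (backgrounds 2.48% and 0.571%). The largest total change over the series was at chr3:100000001-100500000 (Gdap2, Wdr3 and Tent5c), from -0.38 in myoblasts to 0.38 at day 3 and 1.55 with AraC. Myoblast values on chromosome 3 rest on a weak component. PC1 there held 26.3% of the variance in myoblasts, the lowest of all autosomes, against 60.7% at day 3 and 55.6% with AraC.

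The 12 bins with the largest rise lay in 6 neighbourhoods. The first was chr12:83000001-83500000, which holds the start and the whole of Dpf3, a subunit of the BAF chromatin remodelling complex that reads acetylated histones and has a role in heart and skeletal muscle development. Its scaled PC1 was -1.09 for myoblasts, -0.62 at day 3 and 0.57 with AraC. The adjacent bin, chr12:82500001-83000000, holds the start of Rgs6, a regulator of G protein signalling, and had -0.87, -0.51 and 0.42. Both bins formed a narrow B pocket at day 3, and the bins on either side of it were in A in all 3 matrices, with 1.27, 1.96 and 2.04 in the bin of Numb on one side and 0.29, 0.90 and 1.38 in the bin of Sipa1l1, itself a rising bin, on the other.

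The second neighbourhood was a stretch of chromosome 3 that supplied 5 of the 12. The bin chr3:98500001-99000000 holds the Hsd3b cluster, whose enzymes convert steroid hormone precursors, and Hao2, and had -0.74, -0.12 and 0.88 in the same order of conditions. Its neighbour with Tbx15, a T-box factor of limb skeleton and muscle fibre type, and Wars2, a mitochondrial tRNA synthetase, had -0.21, 0.60 and 1.60. The bin of Spag17, a component of motile cilia, had 0.06, 0.85 and 1.78. The bin of Gdap2, Wdr3 and Tent5c, given above, came second among all rising bins. The bin of Man1a2, Vtcn1, Trim45 and Ttf2 had 0.28, 0.76 and 1.80. In all 5 the value at day 3 was intermediate and the step from day 3 to AraC was the larger one.

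The third was on chromosome 6, where the order was different. The bin chr6:31500001-32000000 holds the start of Podxl, which encodes the sialomucin podocalyxin, and had 0.17, 0.14 and 1.12. The adjacent bin, with 1700012A03Rik, had -0.08, -0.13 and 1.00. Myoblasts and day 3 myotubes were alike here, and the whole change lay between day 3 and AraC. The bin of Plxna4, a semaphorin receptor subunit, came next with 0.67, 0.75 and 1.47.

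The other 3 neighbourhoods were single bins among the 12. The bin chr14:59500001-60000000 holds the starts of Shisa2, an endoplasmic reticulum protein that restrains Wnt and FGF receptors, and of Cdadc1, a member of the cytidine deaminase family, and had -0.91, -0.44 and 0.55. The bin chr5:112500001-113000000 holds the starts of Myo18b, an unconventional myosin needed for sarcomere assembly, and of Sez6l, a membrane protein best known from neurons, and had -0.77, -0.54 and 0.41. The bin chr17:30500001-31000000 holds the starts of Btbd9, Dnah8, Glo1, Glp1r and Umodl1 and had -0.57, -0.40 and 0.44. Glo1 detoxifies methylglyoxal, and Glp1r is the receptor of the incretin hormone GLP-1. All 3 were in B in myoblasts and at day 3 and in A with AraC.

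**Figure D2:**
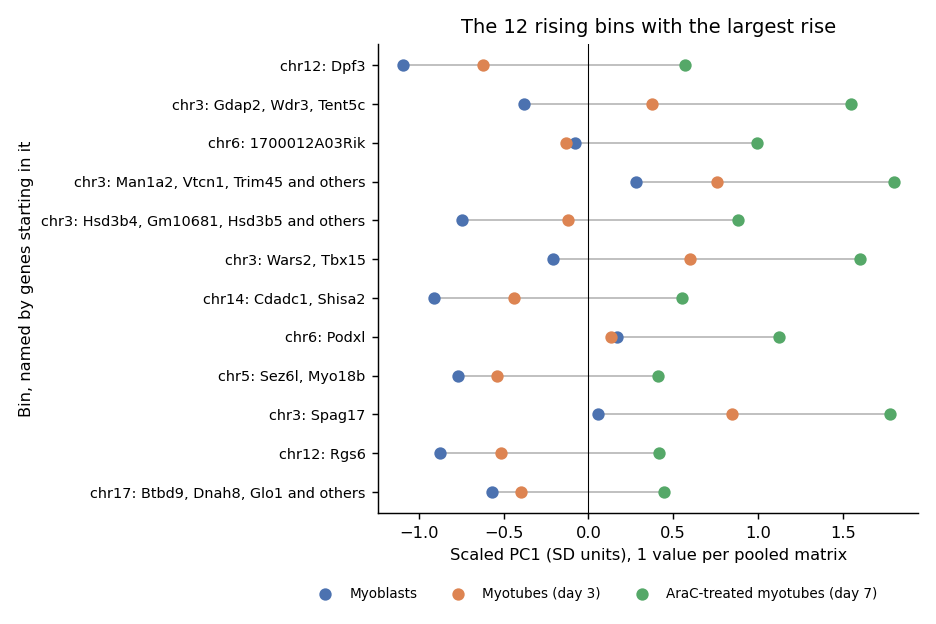
Scaled PC1 (x axis, SD units) of the 12 rising bins with the largest difference, 1 row per bin named by its chromosome and the genes that start in it, with 1 point per pooled matrix. The AraC-treated value is the highest in every row, between 0.41 and 1.80, and in the 2 chromosome 6 bins the myoblast and day 3 points nearly coincide.

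Of the 59 bins that moved from B to A, 10 were at least 0.25 away from 0 on both sides. They comprise 5 of those already given (Dpf3, Rgs6, Shisa2, Myo18b and the Btbd9 to Umodl1 bin) and 5 others, in all of which myoblasts too were in B. Next to the Shisa2 bin, the bin of Atp8a2, a phospholipid flippase, and Mtmr6 had -0.62, -0.44 and 0.35. On chromosome 8, chr8:110000001-110500000 with Calb2, which encodes the calcium-binding protein calretinin, and Hydin, a protein of motile cilia, had -0.68, -0.47 and 0.30. On chromosome 17, the bin of the amino acid transporter subunit Slc3a1 with Prepl and Camkmt had -0.90, -0.37 and 0.29, and the bin of the sterol exporter Abcg1 and the trefoil factors Tff1 to Tff3 had -0.36, -0.27 and 0.34. The last, chr2:75000001-75500000, holds no protein-coding start site and had -0.27, -0.26 and 0.27. Of these 10 bins, 8 were in the core chosen under all 7 settings.

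Rising bins stood next to each other. They formed 109 runs of adjacent bins, and 57 runs of at least 2 bins held 184 of the 236. A neighbour that was itself a rising bin was present for those 184 (78.0%) against 8.12% of all bins. Adjacent bins share contacts, so they are not independent. The median difference between AraC-treated and day 3 myotubes decayed from 0.480 in the bins themselves to 0.348 and 0.356 at 0.5 Mb on either side, 0.230 and 0.235 at 1 Mb and 0.0770 and 0.128 at 2 Mb.

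The longest run was chr17:8000001-14000000 with 12 bins and 42 protein-coding start sites. Its mean scaled PC1 was -0.13 for myoblasts, 0.17 at day 3 and 0.69 with AraC, and 5 of its bins moved from B to A. The bin of Pde10a, a cyclic nucleotide phosphodiesterase, had -0.29, -0.19 and 0.51. The bin of Qk, the RNA-binding protein quaking, which controls splicing in muscle and glia, had 0.24, 0.93 and 1.33, and the bin of Igf2r, the receptor that clears IGF2, had -0.10, 0.34 and 0.79. The bin at the proximal edge of the run, with the mesoderm factor T (brachyury) and Ccr6, was in A in all 3 matrices with 0.41, 0.49 and 0.84. Another 5 rising bins lay further toward the proximal end at chr17:3500001-6000000, among them that of Arid1b, another BAF subunit gene, with -0.70, -0.56 and 0.16.

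The next run was chr9:111000001-116000000 with 10 bins, 7 of which moved from B to A. Its mean was -0.68 in myoblasts, -0.12 at day 3 and 0.39 with AraC. It holds Stac, whose family supports calcium channels of excitation-contraction coupling, Arpp21, Clasp2, Glb1 and Gadl1. A second run followed on the same arm at chr9:117000001-120000000, with means of -0.28, 0.56 and 1.10 over 6 bins and with Eomes, Itga9, Myd88 and Acvr2b. The third longest was chr3:96500001-101000000, with 9 bins and means of 0.24, 0.91 and 1.76. Beside the bins described above it holds Notch2, the Notch receptor, in a bin with 0.29, 1.08 and 1.71, and Txnip, an inhibitor of thioredoxin and of glucose uptake, in a bin with 1.79, 2.14 and 2.56, the highest AraC value of any rising bin.

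Most of the rising bins scored below the mean of their surroundings. That mean takes both sides together, so a bin on a slope between A and B can also score below it. The scaled PC1 of a rising bin was below the mean of the bins up to 2 Mb away in 198 of 236 (83.9%, background 53.9%) in myoblasts, in 191 (80.9%, background 54.5%) at day 3 and in 163 (69.1%, background 53.7%) with AraC. The median distance below these surroundings was -0.555 in myoblasts, which the rule did not use, -0.548 at day 3 and -0.255 with AraC, against medians of -0.0483, -0.0465 and -0.0286 over all bins. The 1038 other bins whose day 3 score lay between the quartiles of the rising bins had a median difference above 0, with 0.224, 0.214 and 0.164. At the same time 106 (44.9%, background 25.8%) lay next to a compartment border at day 3, meaning that a neighbouring bin had the opposite sign, and 110 (46.6%, background 28%) had a scaled PC1 within 0.5 of 0.

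**Figure D3:**
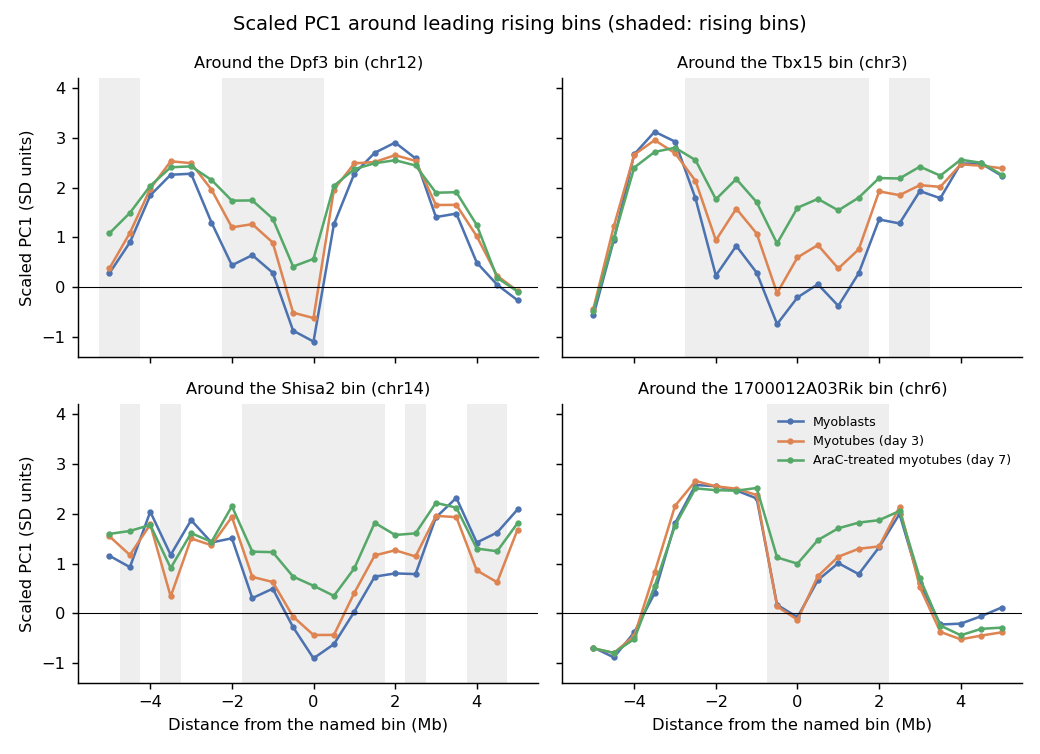
Scaled PC1 (y axis, SD units) of the bins up to 5 Mb on either side (x axis, distance in Mb) of the Dpf3, Tbx15, Shisa2 and 1700012A03Rik bins in the 3 pooled matrices, with rising bins shaded. The lines separate most in the valley of each panel, where the AraC-treated line is highest, and at distance 0 it is 0.57, 1.60, 0.55 and 1.00.

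The rising bins were unevenly spread over the chromosomes. Chromosome 17 had 26 among 184 tested bins (14.1%), 12 of them moving from B to A, and chromosome 9 had 23 among 243 (9.47%), 9 of them moving. Chromosomes 16, 12, 15 and 14 followed with 8.42%, 8.04%, 7.92% and 7.42%. At the other end, chromosomes 7 and 11 had 3 each (1.13% and 1.27%) and chromosome 19 had none among 117 bins. The SD of the difference between the myotube matrices also varied by chromosome, from 0.122 on chromosome 11 to 0.259 on chromosome 17. A common threshold over all autosomes takes more bins where the spread is wider, and the part of this in the counts was not tested. Along the chromosomes, 61 rising bins (25.8%, background 15.6%) lay within 20 Mb of the distal end. Among them are the chromosome 9 runs of 10 and 6 adjacent bins, which are not independent.

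**Figure D4:**
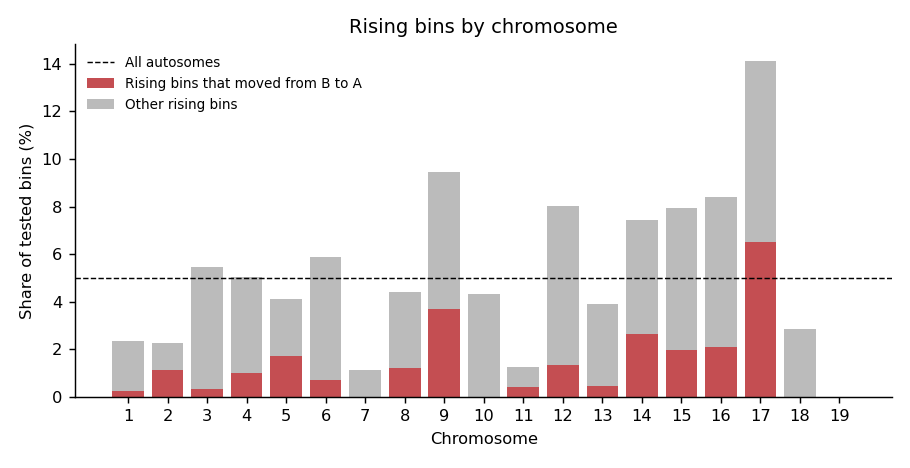
Share of the tested bins of each autosome that were rising bins (y axis, %), stacked by whether they moved from B to A, with the share over all autosomes as a dashed line. Chromosome 17 is highest at 14.1% and chromosome 19 has none.

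The coefficients between bins of different chromosomes, which do not enter the within-chromosome PC1 directly, were examined next. Each coefficient compares whole interaction profiles, so those within a chromosome may already contain contacts with other chromosomes, and both kinds are from the same matrices. They are a description and no separate evidence. The first component of each bin's correlation with bins of other chromosomes was higher with AraC than at day 3 in 236 of 236 rising bins (background 45.8%), and 61 (background 2.07%) moved from below to above 0 on it. Its median was -0.117 in myoblasts, 0.230 at day 3 and 0.750 with AraC. Chosen with the median absolute deviation, 87.3% of bins had the higher value with AraC.

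The deposited coefficients are given next as means over pairs of bins. The mean coefficient between rising bins and other bins on other chromosomes that were in A throughout was 0.00610 for myoblasts, 0.0197 at day 3 and 0.0543 with AraC, over 306595 pairs. With bins that were in B throughout it was 0.00895, 0.00290 and -0.0296 over 599447 pairs. In myoblasts both means were close to 0 and to each other, and with AraC they had opposite signs. The difference between both means was higher with AraC than at day 3 in 231 rising bins (97.9%), but also in 68% of all bins, and its median went from -0.00788 to 0.0126 and 0.0855. Among the bins that moved from B to A, the mean coefficient with A bins was -0.0172, -0.0254 and 0.0223 and that with B bins 0.0217, 0.0352 and -0.00746.

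Between rising bins on different chromosomes the mean coefficient was 0.0177 in myoblasts, 0.0375 at day 3 and 0.0689 with AraC over 25954 pairs, with an SD between pairs of 0.0288, 0.0481 and 0.0636. Over all pairs of tested bins it was 0.00526, 0.00743 and 0.00306. For comparison, bins in A throughout had 0.0733, 0.125 and 0.0975 among themselves, above the rising bins in all 3 conditions. This increase depended on the scaling. Bins chosen without the division by the SD had 0.0344, 0.0533 and 0.0343, a decrease from day 3 to AraC and no gain over myoblasts, and those chosen with the median absolute deviation had 0.0440, 0.0985 and 0.136.

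**Figure D5:**
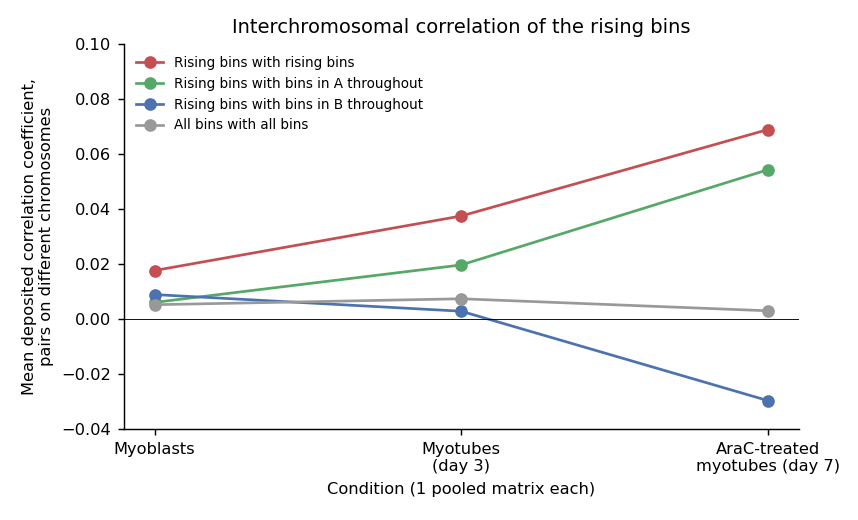
Mean deposited correlation coefficient (y axis) over pairs of bins on different chromosomes in the 3 pooled matrices (x axis), for rising bins with each other, with bins in A throughout and in B throughout, and for all pairs. The values of rising bins with A bins go from 0.00610 to 0.0543 and those with B bins from 0.00895 to -0.0296, while the mean over all pairs stays below 0.01.

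Whole interaction profiles were compared by the Pearson correlation of a bin's coefficients with the other bins of its chromosome, where a value below 0 marks a bin whose preferred partners were exchanged. Between day 3 and AraC-treated myotubes this was below 0 in 28 rising bins (11.9%, background 1.16%), of which 22 moved from B to A. The profiles hold the coefficients whose PC1 difference chose the bins, so a low correlation is in part fixed by the rule and nothing is read from the excess. In all there were 55 such bins among the 4727. The lowest value was -0.65, at chr17:65000001-65500000, which holds no protein-coding start site and had a scaled PC1 of -0.70, -0.23 and 0.19. It was -0.49 in the Slc3a1 bin and -0.42 in the Arpp21 bin. The median profile correlation was 0.827 in the rising bins and 0.947 in all bins. In the 1038 other bins whose day 3 score lay between the quartiles of the rising bins it was 0.763. Many rising bins lie outside that range of scores, so the sets are not matched and nothing is read from this contrast. Among the rising bins the median was 0.916 for those in A in both myotube matrices, 0.855 for those in B in both and 0.118 for those that moved from B to A. Between myoblasts and AraC-treated myotubes the profile correlation was below 0 in 59 rising bins (25%, background 5.8%), and between myoblasts and day 3 myotubes in 23 (9.75%, background 3.26%).

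In gene content the rising bins were slightly richer than all tested bins by the median and close to them by the mean. They held a median of 3 protein-coding start sites per bin (quartiles 1 and 7), against 2 over all bins, and 38 (16.1%, background 24.3%) held none. The median was 2 for bins chosen without the division by the SD and 5 with the median absolute deviation. In the 1038 other bins whose day 3 score lay between the quartiles of the rising bins the median was also 3. These 1038 bins cover a narrower range of scores than the rising bins. Mean numbers were 4.42 in the rising bins, 4.31 over all bins and 4.46 in the 1038 bins. The genes of the rising bins were somewhat longer than those of all bins. Their median was 21.9 kb against 18.02 kb, and 15.4% were over 100 kb against 11.6%. Base composition was set against the same 1038 bins. The median GC content of the rising bins was 44.1% against 42.1%, their CpG density 10.1 against 8.90 per kb, and the share of repeat-masked bases 27.4% against 29.9%. The density of HindIII sites, which sets how many fragments the assay can see, was 31.8 per 100 kb against 32.4. The part of base composition and of HindIII density in the result was not tested.

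The loci of muscle genes that define the line lay outside the set. The bins of Myod1 (1.51, 1.65 and 1.72 in myoblasts, myotubes and AraC-treated myotubes), Myog (2.57, 2.42 and 2.45), Acta1 (2.90, 2.49 and 2.55) and Des (1.11, 1.51 and 1.34) were in A in all 3 conditions. The bin of Ttn, the giant sarcomeric spring protein, had its step earlier, from -0.11 to 1.15 at day 3 and 1.28 with AraC, and the bin of Myh3, the embryonic myosin heavy chain, stayed in B with -1.21, -0.78 and -0.54.

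Gene lists were read against the 1042 of 20333 protein-coding genes (5.12%) that start in rising bins. The list of myogenic regulators and fusion genes had 7 of 68 (10.3%, in 7 of 66 bins, and the median difference over its bins was -0.0465). The lists were chosen with earlier results of these data known. The count is small, its distance from 5.12% was not tested and nothing is read from it. Dpf3 is described above. Itgb1, the integrin beta 1 chain used in myoblast fusion, was in a bin with -0.15, 0.99 and 1.66, and most of that rise came before day 3. Igf2, the growth factor of differentiating myoblasts, was in a bin with 0.75, 1.48 and 1.82, and Kirrel, the homologue of a fly fusion receptor, in one with 1.15, 0.81 and 1.27. Adgrb1, a receptor for apoptotic cells used in fusion, was in a bin with -0.05, 0.01 and 0.37. Six2 had -0.84, -0.59 and -0.11 and stayed in B, and Id4, an inhibitor of bHLH factors, had 0.20, -0.37 and -0.03.

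Lists of the contractile and membrane machinery had shares on both sides of the 5.12% of all protein-coding genes, from small counts. The sarcomere list had 2 of 94 (2.13%), Myo18b, given above, and Pfkm, the muscle phosphofructokinase, in a bin with 0.75, 0.92 and 1.49. The dystrophin complex list had 2 of 24 (8.33%). The list of excitation-contraction coupling had 3 of 40 (7.5%). Among them were Casq2, a calcium store protein of the sarcoplasmic reticulum, in a bin in A throughout (1.93, 2.05 and 2.43), and Cacna1c, a calcium channel subunit, in a bin that dipped into B at day 3 (0.12, -0.33 and 0.07).

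Among signalling genes, the Wnt, Notch, FGF and IGF list had 4 of 80 (5.00%), namely Notch2 and Igf2r, given above, Fgf9 (0.30, 0.73 and 1.24) and Rspo1, a Wnt agonist (-0.08, -0.12 and 0.23). The TGF-beta, BMP and activin list had 1 of 50, Acvr2b, the receptor through which myostatin restrains muscle growth, in a bin with 0.23, 0.99 and 1.45 that it shares with Myd88. The matrix and fibroblast list had 2 of 65, Col2a1 and Ly6a, and the metabolism list 1 of 35, Slc2a1, the basal glucose transporter, with 0.65, 0.77 and 1.39.

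The innate sensing, pyroptosis and interferon list had 7 of 96 genes (7.29%) but only 4 of 75 bins (5.33%), because 4 of the genes are neighbours. Naip1, Naip2, Naip5 and Naip6, whose proteins sense bacterial flagellin and secretion systems and assemble an inflammasome, lie together at chr13:100000001-100500000, beside Smn1, the survival motor neuron gene. Scaled PC1 there was 0.30 for myoblasts, 0.51 at day 3 and 1.11 with AraC, so the bin was in A in all 3. The sign of PC1 was set by start sites. On chromosome 13 its Pearson correlation with them was only 0.131, 0.0627 and 0.0512, the lowest of all autosomes in each condition. Calls of A or B and of a rise are therefore less sure for bins of that chromosome. The other 3 genes were Mefv, which encodes pyrin (-0.22, 0.39 and 0.91), Myd88, the adaptor of Toll-like receptors, and Mx1, an interferon-induced GTPase, whose bin moved from B to A (-0.33, -0.32 and 0.15).

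Genes tied to the drug and to cell division were set against the 5.12% of all protein-coding genes. The counts are small and their distance from that share was not tested. None of the 56 genes of the list for AraC metabolism and the DNA damage response started in a rising bin, and the median difference over their 55 bins was -0.0836. The cell cycle and DNA replication list had 2 of 78 (2.56%). Mcm7, a subunit of the replicative helicase, was in a bin with -0.09, 0.05 and 0.67, and Cdkn1c, a cyclin-dependent kinase inhibitor of differentiating muscle, was in one with 0.53, 1.39 and 1.95.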

How the data were processed

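Hi-C libraries of C2C12 myoblasts, day 3 myotubes and AraC-treated myotubes (2 biological replicates each, from different vials) were mapped and filtered by the authors with HiCUP and bowtie and analysed with HOMER on mm10. The authors made matrices per replicate, not analysed here, and pooled the replicates, per the file headers and methods. They deposited 1 matrix per condition, whose values are a score, the Pearson correlation coefficient of the interaction profiles of 2 bins of 500 kb. Deposited scores carry no counts, so counting error cannot be computed from them, and the sequencing depth, which the study gives, is not used here.

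Autosomal bins with a diagonal above 0.5 in all 3 matrices were kept. For each chromosome and condition the columns of the within-chromosome block were centred and PC1 was taken, with its sign set by protein-coding start sites (GENCODE M21) and its values divided by their SD. The component for other chromosomes used their columns instead. Steps were run in Python 3.11.15 with NumPy 2.4.6 and tested on simulated data. Promoters are from RefSeq GRCm38.p6. Intervals are exact binomial at 95% and cover counting error only.

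With 1 pooled matrix per condition there was no test. Background shares are over all 4727 bins. Bins named are the 12 with the largest rise, the 3 longest runs, B-to-A bins with a score of at least 0.25 in size on both sides, those with a listed gene and those at the threshold. Any other bin was named with its values in view. The rising bins and the gene lists were chosen with earlier results of these data known. Alternatives changed the scaling, component, centring, partner bins, diagonal filter and share of bins taken. Some genes that start in rising bins are not reported here.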

Additional observations from a re-analysis of the deposited data

How the results depend on the processing

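Under each alternative the bins were chosen anew and described with the values used above. Of these values 65 stayed close to the original and 20 moved, although some outcomes were fixed by construction: no diagonal lay between 0 and 1, taking 10% had to keep all 236 bins, taking 2.5% could keep at most 118, and bins chosen by the component from other chromosomes had to be higher on it. Here close means within the 95% interval of the share or median, or within 1.5 times of a count or mean. The component from other chromosomes kept 216 of the 236 bins, columns without centring 235, odd partner bins 222, even partner bins 228 and no minimum of the diagonal 236. Scaling mattered most. With division by the median absolute deviation 123 bins were kept, 11.4% moved from B to A, the median myoblast score was 0.93, 82.2% were higher with AraC than in myoblasts, 87.3% had a higher component from other chromosomes, the median number of start sites was 5, and the mean correlation between chromosomes was 0.0440 in myoblasts, 0.0985 at day 3 and 0.136 with AraC. Without division 143 were kept, the median myoblast score was -0.66, the median number of start sites 2, and the correlation 0.0344 in myoblasts, 0.0533 at day 3 and 0.0343 with AraC, so it was lower with AraC than at day 3, the reverse of the main values. Taking 2.5% of bins kept 118, of which 32.2% moved from B to A and 98.3% were higher with AraC than in myoblasts. Taking 10% gave 15.9% and 89.9%, and a correlation of 0.0443 with AraC. The causes were not tested. No paired analysis was possible because the matrices used pool the replicates, and for the same reason no replicate could be left out. The counts behind the coefficients cannot be recovered from the matrices, so values near 0 carry an unknown counting error.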

Other observations

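Gene clusters put many genes of 1 family into few rising bins. Of 59 keratin genes in tested bins, 17 lay in 1 rising bin, the type II keratin cluster of chromosome 15, which was in A throughout (0.40, 0.70 and 1.28 in myoblasts, myotubes and AraC-treated myotubes). Of 113 bins with olfactory receptor genes 6 were rising bins (5.31%), of 59 with vomeronasal receptor genes 2, and of 48 with cytochrome P450 genes 3. Over all 3579 bins with protein-coding start sites the share was 5.53%, so these counts were near the background, and the number of bins per family is small. Families were taken by symbol prefix. On that count no rising bin held a histone, protocadherin, cadherin, serpin, C-type lectin or teneurin and neurexin gene. These families had 6, 12, 27, 19, 18 and 19 tested bins. Genes with other symbols were not counted, such as the histone gene H1fnt in the Pfkm bin.

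The HoxD cluster, whose genes set limb and axial identity, lay in a rising bin on chromosome 2 with -0.12, -0.0031 and 0.52. The adjacent bin on each side, without a protein-coding start site, was also a rising bin, with -0.24, -0.17 and 0.45 at chr2:74000001-74500000 and -0.27, -0.26 and 0.27 at chr2:75000001-75500000. Of the 5 bins with Hox genes this was the only rising one.

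In 12 rising bins the value in myoblasts was the highest and day 3 the lowest of the 3, so the AraC-treated value lay between them. Of these, 4 were on chromosome 14 and 4 on chromosome 6. They include the bin of the mast cell protease and granzyme cluster (1.17, 0.34 and 0.91) and the bin of Msra, a methionine sulfoxide reductase, at chr14:64000001-64500000 (1.62, 0.62 and 1.25). The 7 bins that left A at day 3 and were in A again with AraC include that of Lcp1 and Cpb2 on chromosome 14 (0.30, -0.18 and 0.43) and that of the DNA methyltransferase Dnmt3b on chromosome 2 (0.03, -0.13 and 0.25).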
